A study of Mus musculus with 6 samples.

Results

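Most aldehyde dehydrogenases are NAD(P)-dependent enzymes that oxidize aldehydes to acids. From the 56748 gene IDs counted in bone marrow-derived dendritic cells (BMDCs), 10 mouse genes of the family were taken by name. They are Aldh1a1, Aldh1a2, Aldh1a3, Aldh1b1, Aldh2, Aldh3b1, Aldh7a1, Aldh9a1, Aldh18a1 and Aldh1l2, chosen so that Aldh1a2, the gene of Raldh2, could be set against its relatives. All 10 matched an ID, and 9 of them had the 50 counts over the 6 libraries that a test required. Aldh1a1, with 27 counts in all, did not.

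The study compared BMDCs from WT mice with those from mice lacking Nfkb2 in every tissue (Nfkb2-/-), with 3 libraries of each genotype. Nfkb2 encodes p100, the precursor of p52, which pairs with RelB in the noncanonical NF-κB pathway. Marrow cells of both genotypes grew in GM-CSF and then in GM-CSF with IL-4, received no further stimulus, and gave polyadenylated RNA. The knockout was present from the start of the culture and in every cell, and neither age, sex nor strain of the mice was used here. Depth was 43126299, 31622131 and 33211096 counts for the WT libraries and 29863927, 31622146 and 55623068 counts for the Nfkb2-/- libraries, and here as throughout values of the 3 libraries of a genotype follow the order of replicates 1, 2 and 3.

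Retinoic acid (RA) is made from retinol by way of retinal, and the last oxidation, from retinal to RA, is carried out by the retinal dehydrogenases Raldh1, Raldh2 and Raldh3, encoded by Aldh1a1, Aldh1a2 and Aldh1a3. Dendritic cells of the gut are known for Raldh2, whose RA favours regulatory T cells and imprints gut homing on lymphocytes. The other members serve different pathways. Aldh2 and Aldh1b1 are mitochondrial enzymes that clear acetaldehyde, and Aldh3b1 acts on aldehydes derived from lipids. Aldh9a1 belongs to the carnitine pathway, Aldh7a1 to lysine breakdown, Aldh18a1 to proline synthesis from glutamate, and Aldh1l2 to mitochondrial folate metabolism.

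Before the members are described, 3 properties of the libraries bear on them. Nfkb2 itself stood at 215, 154 and 355 CPM (counts scaled to library size with TMM) across the WT libraries. Across the Nfkb2-/- libraries it stood at 44.8, 32.3 and 32.6 CPM, lower in each of these. Of the exon bases of Nfkb2, 18.1% also lie in other genes, and the use of strand in counting is not given in the sources used here. The part of those genes in the counts of Nfkb2 was not tested. Nfkb2-/- replicate 1 stood apart, with a count on 47952 gene IDs against 27692 to 33841 in the other libraries and a first principal component of 160 against -56.3 to -9.72. WT replicate 3 held few macrophage transcripts, with a summed level of 542 CPM over 15 macrophage and monocyte markers against 5073 and 5602 CPM in the other WT libraries and 2443 to 3680 CPM in Nfkb2-/- libraries.

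Markers of dendritic cells were present in every library. The MHC class II invariant chain Cd74 reached 1870 to 3691 CPM in WT and 2748 to 3036 CPM in Nfkb2-/- BMDCs, and the lineage factor Zbtb46 reached 151 to 218 and 115 to 136 CPM. None of the 20 markers was at 0 in all libraries. Of the 20, 6 were higher and 4 lower in Nfkb2-/- BMDCs without overlap, beside 12.7% and 12% of all genes tested, and 1 passed the test with edgeR, beside 1.14%. This was Itgax, which encodes CD11c and stood at 123 to 277 CPM in WT and at 716 to 769 CPM in Nfkb2-/- libraries (log2 fold change 1.99 ± 0.30 SE, edgeR adjusted p = 0.0414). The other higher ones, Mgl2, Itgae, Dpp4, Cd86 and Ciita, did not pass with edgeR. Mean CPM in WT and Nfkb2-/- libraries was 156 and 665 for Mgl2, 2.68 and 10.1 for Itgae, and 88.9 and 156 for Dpp4. For Cd86 it was 401 and 598, and for Ciita 181 and 257. The lower ones were Zbtb46, the lineage factor Irf8, the actin bundling protein gene Fscn1 and the costimulatory receptor gene Cd40. Irf8 stood at 379, 173 and 540 CPM across the WT libraries and at 93.3, 84.0 and 107 CPM across the Nfkb2-/- libraries, without passing (log2 fold change -1.94 ± 0.39 SE, edgeR adjusted p = 0.066). Fscn1 stood at 719 to 1853 CPM in WT and 416 to 515 CPM in Nfkb2-/- libraries (edgeR adjusted p = 0.0902), and Cd40 at 22.7 to 49.8 and 20.6 to 21.7 CPM (edgeR adjusted p = 0.223). With DESeq2 6 of the 20 passed, Itgax, Irf8, Fscn1, Dpp4, Itgae and Mgl2, beside 8.65% of all genes. The part of these markers in the levels of the members was not tested.

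Aldh1a2 lies on mouse chromosome 9 (GRCm38, chr9:71215789-71296243, plus strand), Aldh9a1 on chromosome 1 (chr1:167349991-167368532, plus strand) and Aldh18a1 on chromosome 19 (chr19:40550257-40588463, minus strand). These were the 3 tested members whose WT and Nfkb2-/- libraries did not overlap. The 250 bases before their RefSeq start sites in GRCm38.p6 are shown because these libraries separated in the same direction, with motif matches in capitals. CCAAT, or ATTGG on the other strand, is in capitals for Aldh1a2 and Aldh9a1, and the κB motif, the site class of NF-κB dimers, is in capitals for Aldh18a1.
Aldh1a2: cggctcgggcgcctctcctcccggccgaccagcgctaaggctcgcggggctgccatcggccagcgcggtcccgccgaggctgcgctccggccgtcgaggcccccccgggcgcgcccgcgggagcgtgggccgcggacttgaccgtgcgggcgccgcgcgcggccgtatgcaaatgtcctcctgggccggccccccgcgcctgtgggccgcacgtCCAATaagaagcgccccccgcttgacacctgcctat
Aldh9a1: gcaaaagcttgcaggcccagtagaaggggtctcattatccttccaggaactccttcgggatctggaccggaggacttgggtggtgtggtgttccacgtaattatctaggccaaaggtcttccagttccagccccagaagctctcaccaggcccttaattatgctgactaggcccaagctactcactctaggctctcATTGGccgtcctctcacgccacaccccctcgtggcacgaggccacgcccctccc
Aldh18a1: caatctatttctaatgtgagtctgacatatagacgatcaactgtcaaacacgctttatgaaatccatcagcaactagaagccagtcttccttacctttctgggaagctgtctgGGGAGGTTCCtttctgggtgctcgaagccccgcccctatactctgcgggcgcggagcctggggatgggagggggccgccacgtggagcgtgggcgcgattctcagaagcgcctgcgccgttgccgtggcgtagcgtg

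The windows span chr9:71215539-71215788 for Aldh1a2, chr1:167349741-167349990 for Aldh9a1 and chr19:40588464-40588713 for Aldh18a1. That of Aldh1a2 was 77.6% G and C and held 40 CG pairs, against medians of 52.4% and 6 over the 32851 windows of this length in the table, 97.6% of which had a lower G and C share. Those of Aldh9a1 and Aldh18a1 were 57.6% and 57.2% G and C, with 8 and 18 CG pairs. The CCAAT match began 36 bases before the start of Aldh1a2 and 54 bases before that of Aldh9a1, and 33.8% of all windows held one. The κB match of Aldh18a1 began 137 bases before its start, and 7.25% of all windows held one on either strand. Neither CTTTGA, a core recognized by the TCF and LEF partners of β-catenin, nor TATAAA was in any of the 3 windows, whereas 13.8% and 12.4% of all windows held them. These motifs were not limited to members that separated. The window of Aldh1b1, which had a log2 fold change of 0.08, held a κB match that began 195 bases and a CTTTGA match that began 157 bases before its start. No capitals overlap between motifs, and a match is only a run of letters.

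Aldh1a2 mRNA was far more abundant in Nfkb2-/- than in WT BMDCs. It stood at 45.9, 94.4 and 92.4 CPM across the WT libraries, from 1937, 3070 and 2686 counts. In Nfkb2-/- replicates 1, 2 and 3 it stood at 438, 467 and 342 CPM, from 14817, 14162 and 18299 counts. The genotypes did not overlap, and WT replicate 1 was the lowest of all. The mean rose 5.36-fold, from 77.6 ± 27.4 to 416 ± 65.1 CPM (SD, n = 3 each). The log2 fold change was 2.42 ± 0.31 (SE, edgeR adjusted p = 0.0307), and an exact two-sided permutation test gave p = 0.1, the smallest that 3 libraries against 3 allow. Among the 21849 genes tested, Aldh1a2 ranked 2760 from the top by mean CPM in WT and 313 in Nfkb2-/- BMDCs.

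**Figure D1:**
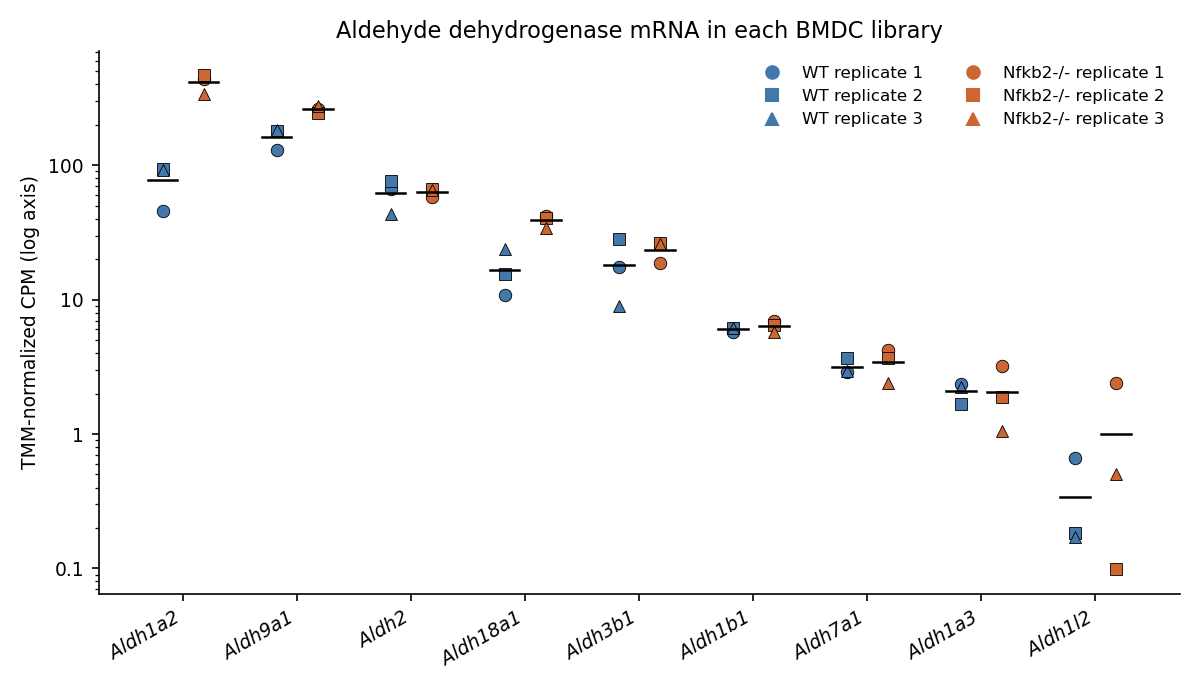
TMM-normalized CPM of the 9 tested members (log axis), with a point for each WT (blue) and Nfkb2-/- (orange) library and a bar for each genotype's mean. Aldh1a2 separates widely, from 45.9 to 94.4 CPM in WT and from 342 to 467 CPM in Nfkb2-/- libraries, while Aldh2 and Aldh1b1 overlap.

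Aldh1a2 was the only member that passed the test, at an adjusted p under 0.05 and a fold change over 1.2, among 9 tested. Over all genes 248 of 21849 passed (1.14%), with 0.453% higher and 0.682% lower in Nfkb2-/- BMDCs. Without Nfkb2-/- replicate 1, the log2 fold change of Aldh1a2 was 2.38 ± 0.34 (SE) with an edgeR adjusted p of 0.0876, and none of the 19244 genes tested passed, although 4088 had an unadjusted p under 0.05. Its fold change stayed between 2.15 and 2.59 on the log2 scale with any single library left out, and its call was lost without WT replicate 1 (adjusted p = 0.125, edgeR) and without each of the Nfkb2-/- replicates (0.0876, 0.163 and 0.156).

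The mRNAs of Raldh1 and Raldh3 were scarce beside that of Raldh2. Aldh1a3 stood at 2.37, 1.66 and 2.24 CPM across the WT libraries and at 3.22, 1.88 and 1.05 CPM across the Nfkb2-/- libraries. The genotypes overlapped, with the highest and the lowest value both in Nfkb2-/- libraries, and the log2 fold change was -0.04 ± 0.43 (SE, edgeR adjusted p = 0.976). Its sign turned with the scaling, to 0.11 with total counts in place of TMM. Aldh1a1 had 0, 2 and 0 counts across the WT libraries and 17, 2 and 6 counts across the Nfkb2-/- libraries, so that most of its counts came from the library that stood apart. It shares 3.06% of its 50-base words with Aldh1a7, a near copy, and no fold change is given at these counts. Per kilobase of exons, Aldh1a2 made up 97.5% to 99.1% of the summed level of the 3 retinal dehydrogenase genes in WT and 99.6% to 99.8% in Nfkb2-/- libraries.

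Aldh18a1, which encodes the enzyme that opens proline synthesis, had the next clear separation. It stood at 10.8, 15.5 and 23.7 CPM across the WT libraries and at 42.1, 40.5 and 34.0 CPM across the Nfkb2-/- libraries. The lowest Nfkb2-/- library was above the highest WT library, and the means were 16.7 ± 6.51 and 38.9 ± 4.32 CPM (SD, n = 3 each), a ratio of 2.33. The log2 fold change of 1.22 ± 0.29 (SE) did not pass with edgeR (adjusted p = 0.0953). It passed with DESeq2 (adjusted p = 0.00394), with which 8.65% of all genes passed. It also passed with edgeR without WT replicate 3 (log2 fold change 1.56, adjusted p = 0.0410, 1.27% of all genes) and without the filter on low counts (adjusted p = 0.00215, 3.5% of all genes).

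Aldh9a1, which oxidizes an aldehyde on the way to carnitine, was the most abundant member in WT BMDCs per length. Its levels were 129, 180 and 183 CPM across the WT libraries and 262, 244 and 277 CPM across the Nfkb2-/- libraries. The genotypes did not overlap, and the spread was narrow, with coefficients of variation of 18.3% in WT and 6.31% in Nfkb2-/- libraries. The ratio of means was 1.59, and the log2 fold change of 0.67 ± 0.18 (SE) did not pass with edgeR (adjusted p = 0.122) but passed with DESeq2 (adjusted p = 0.0164). Of the 9 tested members 3 were higher in every Nfkb2-/- library than in any WT library and none was lower, beside 12.7% and 12% of all genes tested.

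The remaining members of the amino acid and folate pathways were scarce. Aldh7a1, the lysine pathway enzyme, stood at 2.89, 3.69 and 2.96 CPM across the WT libraries and at 4.22, 3.66 and 2.39 CPM across the Nfkb2-/- libraries. These values overlapped, with a log2 fold change of 0.10 ± 0.28 (SE, edgeR adjusted p = 0.883). Aldh1l2, the mitochondrial formyltetrahydrofolate dehydrogenase, had 28, 6 and 5 counts across the WT libraries and 81, 3 and 27 counts across the Nfkb2-/- libraries. The highest and lowest values were both in Nfkb2-/- libraries, and the log2 fold change went from 1.52 ± 1.12 (SE, edgeR adjusted p = 0.533) to -0.15 without Nfkb2-/- replicate 1. Because 14.1% of the exon bases of Aldh1l2 and 9.19% of those of Aldh7a1 also lie in other genes and the use of strand in counting is not given in the sources used here, the counts of both are uncertain.

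The enzymes that clear acetaldehyde and lipid aldehydes did not separate by genotype. Aldh2 stood at 66.3, 76.2 and 43.4 CPM across the WT libraries and at 57.6, 67.0 and 65.1 CPM across the Nfkb2-/- libraries. Only WT replicate 3 lay outside a narrow range, and the log2 fold change was 0.03 ± 0.22 (SE, edgeR adjusted p = 0.960). Aldh3b1 was also lowest in WT replicate 3, with 17.6, 28.1 and 8.95 CPM across the WT libraries against 18.6, 26.2 and 25.9 CPM across the Nfkb2-/- libraries (log2 fold change 0.37 ± 0.39 SE, edgeR adjusted p = 0.660). WT replicate 3 was the library with few macrophage transcripts, whose part in these values was not tested. Aldh3b1 shares 8.97% of its 50-base words with Aldh3b2 and Aldh3b3, so its counts may include theirs. Aldh1b1 stood at 5.76 to 6.19 CPM in WT and 5.78 to 6.91 CPM in Nfkb2-/- libraries (log2 fold change 0.08 ± 0.17 SE, edgeR adjusted p = 0.853). It was the steadiest member in WT libraries, with a coefficient of variation of 3.93%. In Nfkb2-/- libraries its 8.91% was above the 6.31% of Aldh9a1 and the 7.86% of Aldh2.

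Levels of different genes were compared as CPM per kilobase of merged exons. In WT BMDCs the order was Aldh9a1 (48.4 ± 8.84), Aldh1a2 (34.3 ± 12.1), Aldh2 (12.1 ± 3.28), Aldh3b1 (8.90 ± 4.68), Aldh18a1 (4.10 ± 1.60), Aldh1b1 (2.63 ± 0.103), Aldh7a1 (0.614 ± 0.0855), Aldh1a3 (0.453 ± 0.0818), Aldh1l2 (0.0454 ± 0.0374) and Aldh1a1 (0.00415 ± 0.00720), as means with SD over 3 libraries. The ranges over the 3 libraries overlapped between Aldh9a1 and Aldh1a2 and, further down, between each neighbouring pair from Aldh2 to Aldh1b1. Within each WT library, however, Aldh9a1 was above Aldh1a2, Aldh2 above Aldh3b1 and Aldh18a1 above Aldh1b1. Aldh3b1 was below Aldh18a1 in WT replicate 3 only. In Nfkb2-/- BMDCs the order changed at its head, with Aldh1a2 at 184 ± 28.8 and Aldh9a1 at 77.2 ± 4.88 CPM per kilobase, and these did not overlap. Aldh2, Aldh3b1 and Aldh18a1 followed at 12.3 ± 0.970, 11.5 ± 2.09 and 9.54 ± 1.06 CPM per kilobase, with neighbours overlapping. Aldh1b1 stood clear of its neighbours at 2.77 ± 0.247. Aldh7a1, Aldh1a3, Aldh1l2 and Aldh1a1 followed at 0.661 ± 0.181, 0.444 ± 0.237, 0.133 ± 0.163 and 0.0459 ± 0.0485 CPM per kilobase, each overlapping with the next. Within each Nfkb2-/- library Aldh2 was above Aldh3b1, Aldh7a1 above Aldh1a3 and Aldh1a3 above Aldh1l2. Aldh3b1 was below Aldh18a1 in Nfkb2-/- replicate 1, and Aldh1l2 was below Aldh1a1 in Nfkb2-/- replicate 2.

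Summed over the 10 members, the level per length was 86.4, 131 and 117 CPM per kilobase across the WT libraries and 306, 318 and 270 across the Nfkb2-/- libraries. Aldh1a2 accounted for 23.5%, 31.9% and 34.8% of the sum in the WT libraries and for 63.1%, 64.8% and 56% in the Nfkb2-/- libraries. Without Aldh1a2, the sum was 66.1 to 89.2 in WT and 112 to 119 CPM per kilobase in Nfkb2-/- libraries, which did not overlap either, and Aldh9a1 was the largest term in each library. In bulk RNA, a larger share of cells with an mRNA and more of it per cell cannot be told apart.

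**Figure D2:**
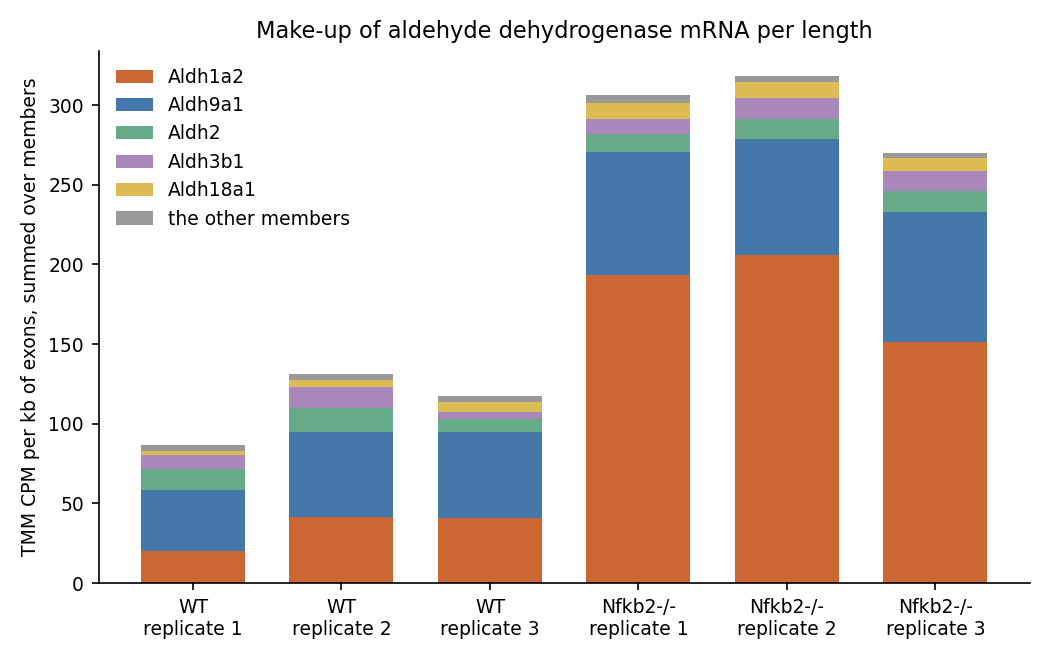
Level per length of the 10 members stacked in each library (TMM CPM per kilobase of exons), with the 5 most abundant in colour and the remainder in grey. The share of Aldh1a2 was 23.5% to 34.8% in WT and 56% to 64.8% in Nfkb2-/- libraries.

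Whether Aldh1a2 changed more than its relatives was tested within libraries, as the log2 ratio of its CPM to that of each relative, each with 0.1 CPM added. Against Aldh9a1 the ratio was -1.49, -0.93 and -0.98 across the WT libraries and 0.74, 0.93 and 0.30 across the Nfkb2-/- libraries. It turned from below to above 0 and did not overlap, with a difference of 1.79 on the log2 scale. Against Aldh18a1 the mean ratio went from 2.21 ± 0.34 to 3.41 ± 0.10 (SD, n = 3 each), a difference of 1.2. The difference was 2.41 against each of Aldh2, Aldh1b1 and Aldh7a1, 2.62 against Aldh1a3 and 1.98 against Aldh3b1. In these 7 ratios the Nfkb2-/- libraries all lay above the WT libraries, and the exact two-sided permutation test gave p = 0.1, the smallest possible here, or 0.129 after Benjamini-Hochberg adjustment over the 9 ratios. Against the scarce Aldh1a1 and Aldh1l2 the libraries overlapped, with differences of 1.24 (exact permutation p = 0.2) and 1.70 (exact permutation p = 0.4). Neither difference was steady. With 1 CPM added in place of 0.1 they were 2.22 and 2.04, each with exact permutation p = 0.1, so the overlap depended on the amount added. The 1 CPM exceeded Aldh1a1 in every library and Aldh1l2 in all but Nfkb2-/- replicate 1. Ratios with it thus mostly follow Aldh1a2 alone and cannot set it against these 2 genes. With 0.1 CPM added, the difference against Aldh1a1 was 0.78 without Nfkb2-/- replicate 2. That against Aldh1l2 was 0.73 without Nfkb2-/- replicate 2, 0.87 without WT replicate 1 and 2.60 without Nfkb2-/- replicate 1.

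**Figure D3:**
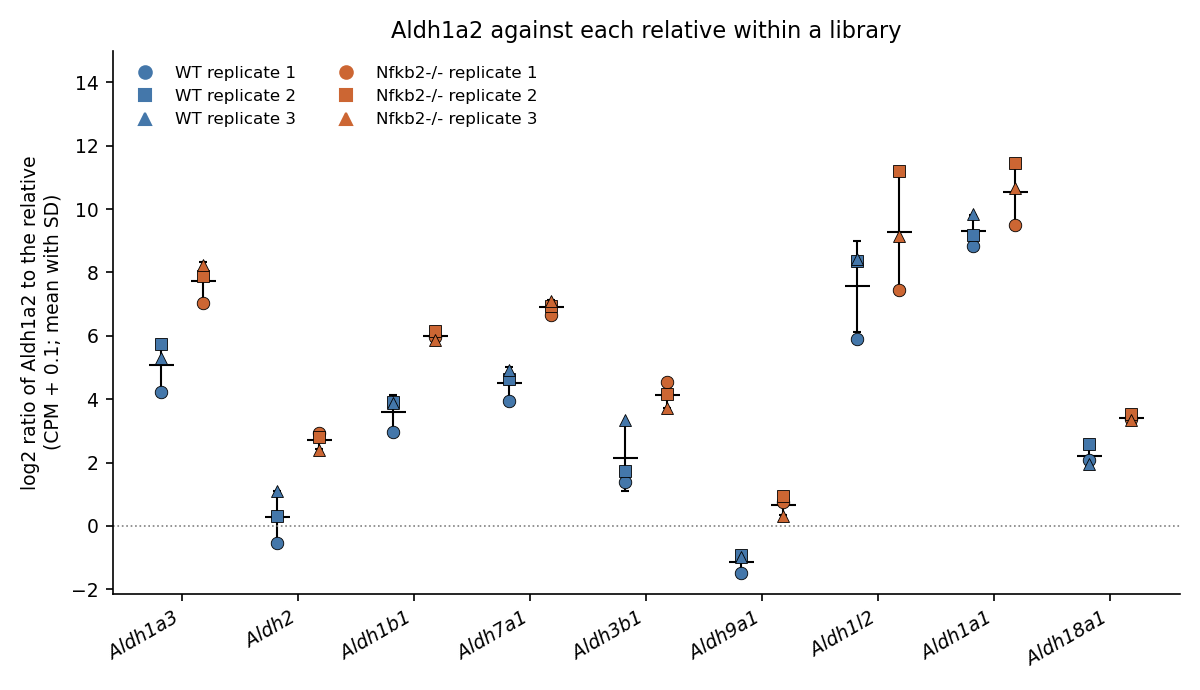
The log2 ratio of Aldh1a2 to each relative (CPM with 0.1 added) in each WT (blue) and Nfkb2-/- (orange) library, with the mean and SD (bars) of each genotype. Relatives are ordered by the difference between genotypes, and 7 of the 9 show no overlap.

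Another 11 genes of the family, outside the 10, served as a comparison, and 10 of them were tested. None passed with edgeR or DESeq2, and 1, Aldh1l1, had an unadjusted p under 0.05 with edgeR, beside 17.1% of all genes tested. Aldh3a2, the fatty aldehyde dehydrogenase and the most abundant of them, stood at 64.9 to 71.2 CPM in WT and 63.7 to 67.1 CPM in Nfkb2-/- libraries (log2 fold change -0.06 ± 0.13 SE, edgeR adjusted p = 0.838). Aldh1l1, the cytosolic relative of Aldh1l2, was lower in every Nfkb2-/- library, at 12, 7.26 and 11.7 CPM across the WT libraries and 7, 5.47 and 5.74 CPM across the Nfkb2-/- libraries, without passing (log2 fold change -0.77 ± 0.24 SE, edgeR adjusted p = 0.176). It passed without WT replicate 2 (log2 fold change -0.97, edgeR adjusted p = 0.0426), where 5.87% of all genes did. Aldh4a1, which breaks proline down in the opposite direction to Aldh18a1, stood at 4.10 to 5.66 CPM in WT and 4.75 to 7.30 CPM in Nfkb2-/- libraries. Aldh6a1 and Aldh16a1 lay between 12.3 and 18.1 CPM in all 6 libraries, and Aldh1a7, Aldh3a1, Aldh3b3, Aldh5a1 and Aldh8a1 never exceeded 1.92 CPM. The median log2 fold change was 0.37 over the 9 tested members, 0.17 over these 10 genes and 0.08 over all genes tested.

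**Figure D4:**
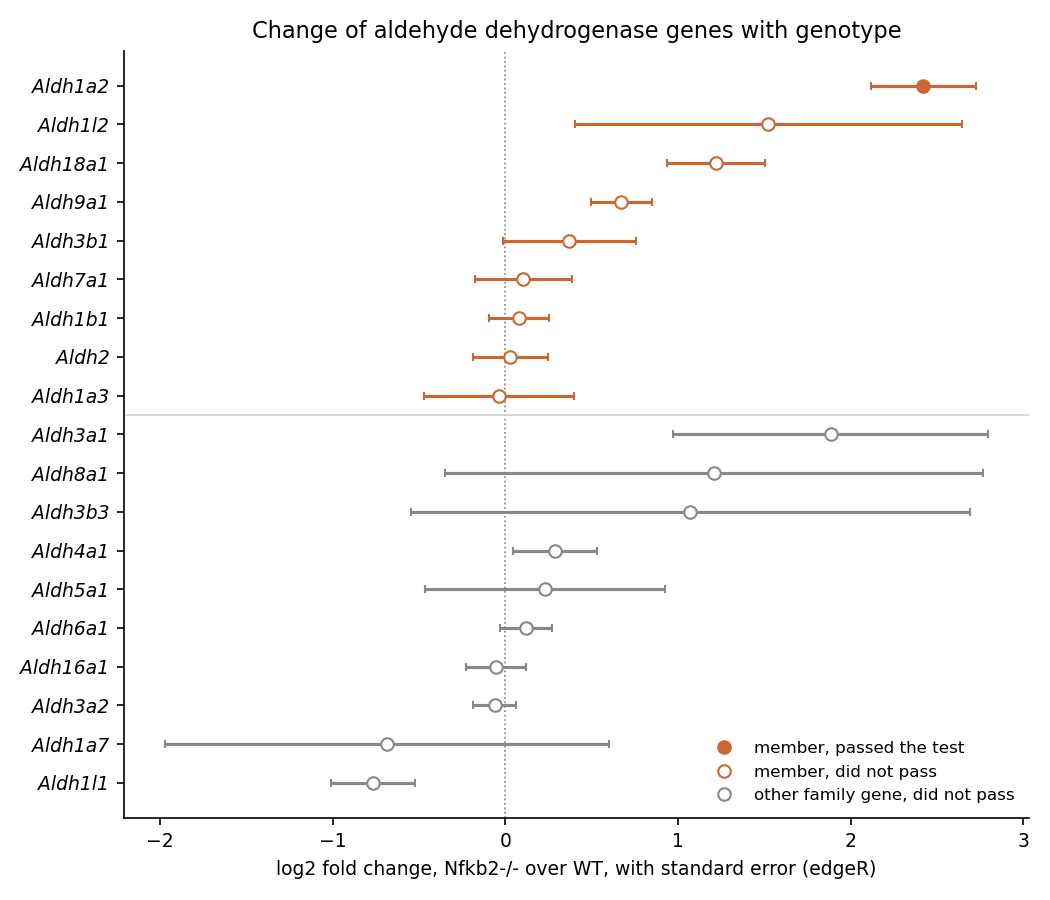
Log2 fold change between Nfkb2-/- and WT BMDCs with its standard error (edgeR) for the 9 tested members (orange) and the 10 tested other family genes (grey), with filled points for genes that passed the test. Aldh1a2 at 2.42 is the only filled point.

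The steps before and after Raldh were read from 26 retinoid genes, of which 19 were tested. None passed with edgeR, although 6 had an unadjusted p under 0.05, beside 17.1% of all genes tested. With DESeq2 5 passed (8.65% of all genes), Crabp2, Dhrs9, Rdh5, Rbp4 and Rdh11, with limma voom 2 (2.23% of all genes), with the filterByExpr filter 1, Crabp2 (2.06% of all genes), and without a filter on low counts 4 (3.5% of all genes). The most abundant were Fabp5, a fatty acid binding protein that also carries RA, the retinal reductase Dhrs3, the alcohol dehydrogenase Adh5 and the retinol dehydrogenase Dhrs9. Dhrs9 stood at 10.2, 37.2 and 8.40 CPM across the WT libraries and at 83.1, 106 and 120 CPM across the Nfkb2-/- libraries. These did not overlap (log2 fold change 2.47 ± 0.57 SE, edgeR adjusted p = 0.0928). Dhrs9 passed without WT replicate 2 (log2 fold change 3.47, edgeR adjusted p = 0.00567), where 5.87% of all genes did. Fabp5 was at 216 to 512 CPM in WT and 276 to 303 CPM in Nfkb2-/- libraries. Besides Dhrs9, the genes Crabp2, Rbp4 and Rdh11 were higher and Rdh5 and Dhrs4 lower without overlap, 4 and 2 of the 19 beside 12.7% and 12% of all genes tested. Crabp2 had 3, 0 and 0 counts across the WT libraries and 88, 39 and 58 counts across the Nfkb2-/- libraries. Rbp4 stood at 0.807, 0.831 and 1.48 CPM across the WT libraries and at 11.1, 5.14 and 1.83 CPM across the Nfkb2-/- libraries. The log2 fold change of Rbp4 was 2.54, and 1.74 without Nfkb2-/- replicate 1. Dhrs4 did not pass with DESeq2, and the sum over the list overlapped between genotypes.

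Of 17 genes of proline, folate and serine metabolism, the pathways of Aldh18a1 and Aldh1l2, 8 were higher without overlap, among them Pycrl of proline synthesis, and Shmt1 and Mthfd2 were lower without overlap, beside 12.7% and 12% of all genes tested. Oat, the ornithine aminotransferase and the most abundant of the list, was at 54.9 to 76.4 CPM in WT and 65.5 to 70.2 CPM in Nfkb2-/- libraries. ATF4 is a factor that also drives Aldh18a1 and Aldh1l2. Of 16 genes, Atf4 itself and genes known as its targets, none passed with edgeR, 4 had an unadjusted p under 0.05, beside 17.1% of all genes tested, and 6 were higher and 0 lower without overlap, beside 12.7% and 12% of all genes tested. Slc7a5, a subunit of an amino acid transporter, stood at 7.97, 22.4 and 8.43 CPM across the WT libraries and at 51.9, 55.0 and 71.1 CPM across the Nfkb2-/- libraries (log2 fold change 2.20 ± 0.42 SE, edgeR adjusted p = 0.0611). It passed with the filterByExpr filter (edgeR adjusted p = 0.0458), with 10 counts required in every library (edgeR adjusted p = 0.0399, 2.82% of all genes) and with limma voom (adjusted p = 0.0274), and with DESeq2 Slc7a5, Asns and Trib3 passed (3 of 16, beside 8.65% of all genes). Atf4 itself stood at 70.8 to 93.6 CPM in WT and 69.4 to 102 CPM in Nfkb2-/- libraries. The most abundant of the list, Slc7a11, Slc3a2 and Sesn2, had log2 fold changes of -0.47, -0.10 and -0.17, and their libraries overlapped. Over the list 9 of 16 log2 fold changes were above 0, with a median of 0.10, and the summed level overlapped between genotypes.

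Of 14 genes reported to regulate Aldh1a2 in dendritic cells, none passed with edgeR and 7 had an unadjusted p under 0.05, beside 17.1% of all genes tested, while 1 passed with DESeq2, Notch2, beside 8.65%. Irf4 stood at 710 to 1338 CPM in WT and 1020 to 1099 CPM in Nfkb2-/- libraries, and the Notch effector Rbpj at 339 to 763 and 747 to 1086 CPM. Notch2, Csf2ra and Spi1 were higher without overlap, and Stat6, Il4ra and Csf2rb, which transmit the IL-4 and GM-CSF signals of the culture, were lower without overlap, beside 12.7% and 12% of all genes tested. Ctnnb1, the β-catenin gene, differed by -0.18 ± 0.15 on the log2 scale (SE, edgeR adjusted p = 0.571).

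Genes with a pattern over the 6 libraries most like that of Aldh1a2, by Pearson's r of log2 CPM among 10645 genes (mean CPM of 5 or more), were Prkcd (r = 0.999), Prpf31 (0.997), Ccl17 (0.994), Sp100 (0.993) and Ints10 (0.993). The points share their libraries and fall into 2 genotypes, so a high r follows from any clear difference between them. Ccl17, a chemokine of dendritic cells, stood at 161, 361 and 432 CPM across the WT libraries and at 2385, 2472 and 2357 CPM across the Nfkb2-/- libraries. Among the members, r with Aldh1a2 was 0.96 for both Aldh9a1 and Aldh18a1, 0.57 for Aldh1b1 and 0.40 for Aldh3b1, and it lay between -0.13 and 0.28 for the others tested.

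Of 12 annotated genes within 500 kb of Aldh1a2, 9 were tested and 1 passed, beside 1.14% of all genes, and 4 were higher without overlap, beside 12.7%. The one that passed was Aqp9, a channel for water and glycerol that ends 47.1 kb from Aldh1a2. Aqp9 stood at 19, 23.0 and 29.6 CPM across the WT libraries and at 53.3, 60.9 and 53.6 CPM across the Nfkb2-/- libraries (log2 fold change 1.23 ± 0.19 SE, edgeR adjusted p = 0.0420). Gm32511, an antisense transcript that overlaps Aqp9 and ends 7.665 kb from Aldh1a2, was at 0.996, 5.45 and 2.62 CPM across the WT libraries and at 15.4, 17.8 and 14.8 CPM across the Nfkb2-/- libraries, without passing (edgeR adjusted p = 0.0877). The pseudogenes Gm47268 and Gm48124 were also higher in each Nfkb2-/- library, without passing (edgeR adjusted p = 0.134 and 0.152). Gm47268 lies within the bounds of Aqp9 and Gm48124 within those of Aldh1a2, in an intron, since Aldh1a2 shares 0 of its exon bases with another gene. Reads of spliced Aldh1a2 are thus not those of Gm48124. With the use of strand in counting not given, the part of unspliced Aldh1a2 RNA in the counts of Gm48124, and of Aqp9 RNA in those of Gm47268 and Gm32511, was not tested. The more distant Adam10, Lipc, Polr2m, Myzap and Cgnl1 overlapped, with log2 fold changes between -0.08 and 0.29.

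**Figure D5:**
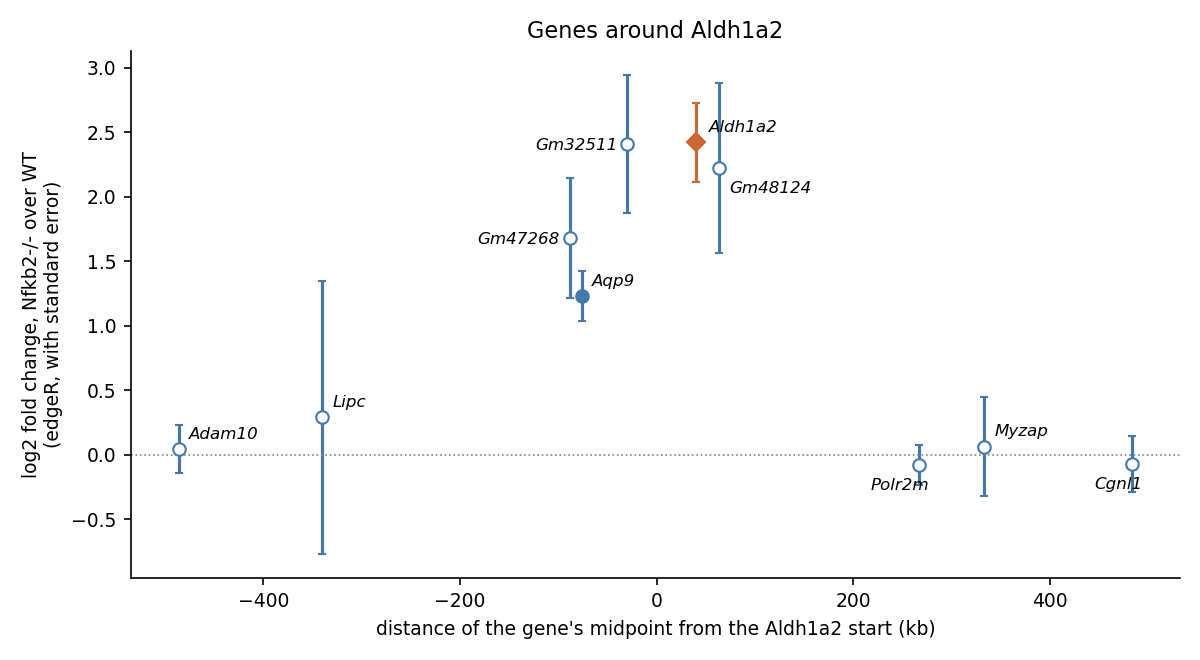
Log2 fold change between Nfkb2-/- and WT BMDCs with its standard error (edgeR) against the distance of each tested gene's midpoint from the Aldh1a2 start in kb, with Aldh1a2 as a diamond and filled symbols for genes that passed the test. Aqp9 (1.23), Gm47268, Gm32511 and Gm48124 lie above 0 beside Aldh1a2 (2.42), and the more distant genes lie near 0.

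Aldh1a1, Aldh3b1 and Aldh18a1 share chromosome 19 with Nfkb2, at distances of 25.7, 42.4 and 5.72 Mb. Among the 100 genes tested between Aldh18a1 and Nfkb2, 1 passed, Btrc, and 19% did not overlap between genotypes, against 1.14% and 24.7% over all genes tested.

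Transcripts of other cell types were read from 8 further marker lists. Epithelial and mesothelial markers, included because mesothelial cells also express Aldh1a2, summed to 40.2, 69.6 and 32.5 CPM across the WT libraries and to 148, 151 and 184 CPM across the Nfkb2-/- libraries. Most of this was Cdh1, the E-cadherin gene, at 19.7 to 62.8 CPM in WT and 132 to 173 CPM in Nfkb2-/- libraries (edgeR adjusted p = 0.0701), whereas the mesothelial genes Wt1, Msln and Upk3b never exceeded 1.48 CPM. Of the 9 genes of that list 5 were tested and none passed with edgeR. Cdh1 passed with DESeq2 (adjusted p = 6.9e-05), with limma voom (adjusted p = 0.0369) and with 10 counts required in every library (edgeR adjusted p = 0.0473). Which cells of the cultures held Cdh1 mRNA was not tested. The mast cell protease gene Cpa3 fell in the knockout (log2 fold change -1.84 ± 0.28 SE, edgeR adjusted p = 0.0413) and was the only gene of its list of 10 that passed with edgeR, while the sum of that list, led by Kit, was 47.6 to 57.7 in WT and 52.2 to 58.3 CPM in Nfkb2-/- libraries. No marker passed among the macrophage (15, led by Lyz2), neutrophil (10, led by S100a8), eosinophil (9, led by Ear2), stromal (12, led by Col1a2), lymphocyte (11, led by Cd8a) and erythroid (8, led by Alas2) lists with edgeR, and their sums overlapped between genotypes. With DESeq2, beside 8.65% of all genes, 2 mast cell and basophil (Cpa3 and Gata2), 1 macrophage, 3 neutrophil, 2 eosinophil, 1 stromal and 1 epithelial or mesothelial marker passed. Of the eosinophil markers all 9 had a log2 fold change above 0 (median 1.24), with 4 at an unadjusted p under 0.05 (17.1% of all genes) and 3 higher without overlap, Siglecf, Ear6 and Il5ra. Without overlap, 1 neutrophil, 1 stromal, 1 epithelial or mesothelial and 2 mast cell and basophil markers were also higher, and 1 macrophage and 3 mast cell and basophil markers lower, beside 12.7% and 12% of all genes tested. In WT and Nfkb2-/- libraries the sums were 85.5 to 243 and 191 to 215 CPM for neutrophil, 34.4 to 283 and 206 to 254 CPM for eosinophil, 4.78 to 86.6 and 12.1 to 44.6 CPM for stromal, 2.77 to 4.68 and 2.54 to 11.3 CPM for lymphocyte, and 4.47 to 5.88 and 5.34 to 7.62 CPM for erythroid markers. The part of these cells in the levels of the members was not tested.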

How the data were processed

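RNA-seq of unstimulated BMDCs, 3 WT and 3 Nfkb2-/- libraries, was analysed. The authors deposited raw counts per Ensembl gene as whole numbers without normalization. The submitters' processing notes name HISAT2 and GRCm38 (mm10), while the counting tool, annotation and use of strand are not given in the sources used here. The joint table of the 6 libraries was not used. Genotype and replicate came from the sample labels. The study describes the triplicates as biological, but the labels do not tie libraries to mice.

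Gene IDs were named with GENCODE M21 (52073 of 56748; the unnamed IDs held 1.01% to 1.75% of a library's counts). Named genes with 50 or more counts summed over all 6 libraries were tested, 21849 in all. Analyses used R 4.3.3 and edgeR 4.0.16 (TMM, glmQLFit and glmQLFTest, no covariates) with Benjamini-Hochberg adjustment over all genes tested. The test was passed at an adjusted p under 0.05 and a fold change over 1.2. The standard error was the size of the log2 fold change divided by the square root of F. Levels per length are CPM divided by merged exon length. DESeq2 1.42.0, limma 3.58.1 (voom), other normalizations and filters, the replicate number as a block and each library left out were alternatives. The tests were checked on simulated counts.

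The members and the 14 other gene lists were chosen with earlier results of these data known. Named genes are Nfkb2, the members, other tested family genes, of each list the genes that passed and up to 4 of the most abundant, the 5 genes most like Aldh1a2 and its neighbours; list members named for not overlapping or for passing in an alternative, Ctnnb1, Zbtb46, Msln and Btrc were chosen after their values were seen. Some results of these lists are not reported here. Promoter sequences are from RefSeq (GRCm38.p6), which gave windows for 6 members: Aldh1a1, Aldh1a2, Aldh1b1, Aldh3b1, Aldh9a1 and Aldh18a1. Depth was 29863927 to 55623068 counts per library, so counting error was small for the abundant members, but not for Aldh1a1 and Aldh1l2, and was not negligible for Aldh1a3 (54 to 109 counts a library) and Aldh7a1 (86 to 143).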

Additional observations from a re-analysis of the deposited data

How the results depend on the processing

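The log2 fold change of Aldh1a2 lay between 2.15 and 2.59 in all 14 alternatives and passed in 9. It was 2.48 (edgeR adjusted p = 0.0594) with the replicate number as a block and 2.15 to 2.59 with a library left out, where the call was lost without WT replicate 1 and without each Nfkb2-/- replicate and kept without WT replicates 2 and 3. The number of genes passing, 248, was 1890 with DESeq2, 488 with limma voom, 397 with filterByExpr, 1625 without the filter, 459 with at least 10 counts in every library and 0 with the block (3331 at an unadjusted p under 0.05), and 0 to 1248 with a library left out (0 without WT replicate 1 and without each Nfkb2-/- replicate, 1248 without WT replicate 2). Members passing numbered 3 with DESeq2 (Aldh1a2, Aldh18a1 and Aldh9a1), 2 without the filter (Aldh1a2 and Aldh18a1), 0 with the block and 0 to 2 with a library left out. The cause of these shifts was not tested.

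Signs reversed only for members near 0 or with few counts. Aldh1a3 (-0.04) was 0.11 with total counts and ranged from -0.54 to 0.29 with a library left out, above 0 without WT replicate 1, WT replicate 3 or Nfkb2-/- replicate 3. Without the filter, Aldh1b1 (0.08) was -0.0083 and Aldh2 (0.03) was -0.039. With a library left out, Aldh2 ranged from -0.17 (without WT replicate 3) to 0.20 and was -0.043 without Nfkb2-/- replicate 2. Aldh7a1 (0.10) ranged from -0.085 to 0.31 and Aldh1l2 (1.52) from -0.15 to 2.47, with both lowest without Nfkb2-/- replicate 1. The Aldh1a2 share with the longest transcript as length was 26.5% in WT and 57.2% in Nfkb2-/- BMDCs, and no difference between genotypes in the ratio of Aldh1a2 to a relative turned in sign with 1 CPM added or a library left out.

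Same-numbered WT and Nfkb2-/- libraries deviated together with correlations of 0.26, 0.15 and 0.02, against -0.24 to 0.16 between libraries of different numbers. Deviations from a mean of 3 libraries are tied to each other, so these values cannot decide whether the numbers mark pairs. The numbers were not taken as pairs in the main test, and the replicate block was an alternative. With 3 libraries a genotype the exact test cannot go below p = 0.1, and Aldh1a1, with at most 17 counts in a library, was below the count filter.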
